A study of Mus musculus with 6 samples.

Results

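The Z-disc is the plate that anchors the thin filaments of neighbouring sarcomeres, the contractile units of striated muscle. The genes described here are 10 members of it and of the stretch-sensing proteins that sit on it, taken by symbol from a table of 24532 genes: the alpha-actinins Actn2 and Actn3, the myozenins Myoz1, Myoz2 and Myoz3, myotilin (Myot), the LIM domain proteins Csrp3 and Fhl2, and the ankyrin repeat proteins Ankrd1 and Ankrd2. All 10 were in the table, and all 10 were among the 14109 genes that passed the filter on low counts. RNA was sequenced from whole gastrocnemius, a calf muscle made mainly of fast fibres, of 12-week-old C57BL/6 mice. In 3 knockout mice, floxed USP21 alleles were combined with Ckmm-Cre, which places the recombinase under the promoter of muscle creatine kinase, active in muscle fibres. The 3 control mice were labelled USP21 flox/flox with no Cre named, which is read here as floxed mice without the Cre. The floxed alleles were thus shared by both groups, and no group was labelled as carrying the Cre alone. USP21 is a protease that removes ubiquitin from other proteins.

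Alpha-actinins cross-link actin filaments in the Z-disc. Myozenins, also called calsarcins, bind alpha-actinin and the phosphatase calcineurin, and Myoz2 is the form of slow and cardiac muscle whereas Myoz1 and Myoz3 are forms of fast muscle. Csrp3 (muscle LIM protein), Ankrd1 and Ankrd2 are known for rising when muscle is loaded or stretched, and they link titin and the Z-disc to gene expression in the nucleus.

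Libraries held 48658436 to 67332846 counts. The skeletal muscle markers Ckm, Acta1, Mb, Des, Ttn and Myh4 summed to 134946 to 162024 CPM (counts scaled to library size and composition) in knockout libraries. In control libraries they summed to 114761 to 144523 CPM, so every library was of skeletal muscle. These markers do not tell 1 muscle, or part of a muscle, from another. Usp21 stood at 9.08, 7.19 and 7.47 CPM in knockout muscle, against 19.3, 19.3 and 19.2 CPM in control muscle (log2 fold change -1.28, SE 0.11, edgeR adjusted p = 0.0355), the direction the labels give. The log2 fold change stayed at -1.22 or below without any 1 library, with an adjusted p of 0.15 without knockout 2, 0.19 without control 1, 0.13 without control 2 and 0.094 without control 3. Control 3 stood apart from the other libraries in slow fibre genes. The 10 slow fibre genes (Myh7, Myl2, Myl3, Tnnt1, Tnni1, Tnnc1, Tpm3, Atp2a2, Casq2 and Myh7b) summed to 1112, 783 and 1777 CPM in knockouts 1 to 3 and to 1463, 1419 and 179.9 CPM in controls 1 to 3, and each of the 10 was lowest in control 3. Values without this library are given where leaving it out moved a member's result. In whole muscle, fewer fibres of a type and less RNA per fibre cannot be told apart.

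The stretches of DNA before the start sites of 5 members are shown because their levels moved most between libraries. Each is the 250 bases before the gene start in RefSeq (GRCm38.p6), written 5′ to 3′ on the strand of the gene. Capitals mark matches, on either strand, to 4 motifs: the MCAT element CATTCC bound by TEAD factors, the E-box CANNTG bound by myogenic factors, the MEF2 site, and the CArG box bound by serum response factor.
Myoz2 (chr3:123034988-123035237, minus strand): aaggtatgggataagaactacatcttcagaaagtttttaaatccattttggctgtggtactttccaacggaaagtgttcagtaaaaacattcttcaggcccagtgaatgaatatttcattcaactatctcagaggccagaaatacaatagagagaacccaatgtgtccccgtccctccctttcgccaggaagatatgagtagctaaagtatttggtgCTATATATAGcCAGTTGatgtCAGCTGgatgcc
Csrp3 (chr7:48848052-48848301, minus strand): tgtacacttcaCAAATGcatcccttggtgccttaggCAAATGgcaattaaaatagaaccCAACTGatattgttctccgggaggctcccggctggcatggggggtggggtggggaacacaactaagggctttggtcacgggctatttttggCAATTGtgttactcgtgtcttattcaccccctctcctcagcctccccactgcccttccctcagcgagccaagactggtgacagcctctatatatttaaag
Ankrd2 (chr19:42035777-42036026, plus strand): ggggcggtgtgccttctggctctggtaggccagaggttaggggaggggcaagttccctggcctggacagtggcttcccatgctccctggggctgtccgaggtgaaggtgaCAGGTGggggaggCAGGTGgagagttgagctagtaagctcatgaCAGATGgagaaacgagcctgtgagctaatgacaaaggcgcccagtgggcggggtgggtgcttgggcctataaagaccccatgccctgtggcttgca
Fhl2 (chr1:43196762-43197011, minus strand): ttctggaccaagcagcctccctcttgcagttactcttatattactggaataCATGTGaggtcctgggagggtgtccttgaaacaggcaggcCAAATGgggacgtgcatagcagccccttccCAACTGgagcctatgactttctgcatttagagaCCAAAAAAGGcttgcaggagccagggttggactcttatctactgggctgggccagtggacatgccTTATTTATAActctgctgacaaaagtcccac
Ankrd1 (chr19:36119845-36120094, minus strand): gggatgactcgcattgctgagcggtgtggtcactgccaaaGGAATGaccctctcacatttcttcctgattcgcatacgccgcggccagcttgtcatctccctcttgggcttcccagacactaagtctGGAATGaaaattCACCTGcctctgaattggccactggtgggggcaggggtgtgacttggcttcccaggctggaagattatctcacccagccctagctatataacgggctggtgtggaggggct

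Myoz2 and Fhl2 each held 1 MEF2 match in these windows, 33 to 24 bases before the start in Myoz2 and 31 to 22 bases before it in Fhl2. Among all 32851 windows of this length in the table, 2.92% held such a match. Fhl2 also held 1 CArG match, at 96 to 87 bases, which 1.47% of windows held. Of the 5 windows shown, only that of Ankrd1 held MCAT matches. They lay at 210 to 205 and at 123 to 118 bases before the start. Among all windows, 12.6% held at least 1. E-boxes were in all 5 windows, 4 of them in Csrp3 and 3 in Ankrd2, and in 66.2% of all windows. A match describes the letters and does not show that a factor binds there. The MEF2 and CArG matches do not overlap each other or an E-box. The RefSeq table used here also lists a second start for Csrp3 and for Fhl2, which is not shown.

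The members spanned a wide range of abundance. On the FPKM scale, which divides by gene length and so allows levels of different genes to be compared, the mean of Actn3 was 1545-fold that of Fhl2 in knockout muscle and 2145-fold in control muscle. Actn3 averaged 3129 ± 250.3 FPKM in knockout and 3127 ± 770 FPKM in control muscle (SD, n = 3 each, as in all such pairs here) and ranked 15 among all genes by mean FPKM. Myoz1 followed at 1765 ± 62.3 and 1952 ± 273 FPKM, then Myot at 748 ± 66.7 and 637 ± 109 FPKM and Actn2 at 361 ± 105 and 349 ± 189 FPKM. Ankrd2 averaged 126 ± 53.4 FPKM in knockout and 147 ± 99.4 FPKM in control muscle, and Myoz2 86.1 ± 51.6 and 115 ± 79.9 FPKM. Each of the first 5 genes in this order exceeded the next in all 6 libraries. Myoz2, Csrp3 and Myoz3 had no fixed order. Csrp3 averaged 56.0 ± 15.6 FPKM in knockout and 100.1 ± 84.3 FPKM in control muscle, below Myoz2 in 4 of 6 libraries. Myoz3 averaged 79.5 ± 7.96 and 69.9 ± 4.62 FPKM, and Csrp3 exceeded it in 2 of 6 libraries. Ankrd1, at 6.21 ± 0.587 and 7.68 ± 8.24 FPKM, and Fhl2, at 2.02 ± 0.589 and 1.46 ± 0.774 FPKM, were the 2 scarce members, and Ankrd1 exceeded Fhl2 in all 6 libraries.

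**Figure D1:**
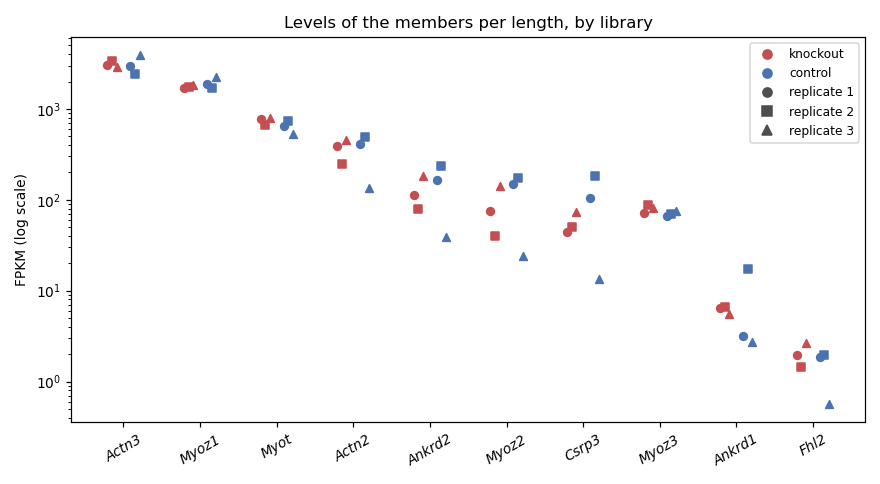
Levels of the 10 members in FPKM on a log axis, with 1 point per library, knockout in red left of control in blue, and marker shapes for replicates 1 to 3. Actn3 and Myoz1 lie highest and Ankrd1 and Fhl2 lowest, and the points of Actn2, Ankrd2, Myoz2, Csrp3 and Fhl2 that lie far below the rest are those of control 3.

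None of the 10 members differed between knockout and control muscle at an edgeR adjusted p under 0.05, a threshold that 0.0567% of all tested genes passed, 0.0354% higher and 0.0213% lower. Before adjustment, 1 member (Myot, higher) was at p under 0.05, as were 6.56% of all genes higher and 5.07% lower, 11.6% in all. DESeq2's Wald test and limma-voom likewise called 0 members after adjustment and had 1 each at an unadjusted p under 0.05. Of the 10 log2 fold changes (knockout minus control), 5 were positive and 5 negative, beside 49.3% positive over all tested genes, and their median was -0.0076, beside -0.0037 over all tested genes. The groups overlapped in 9 of the 10 members. Myot was the exception, and 8.38% of all tested genes had every knockout library above every control library, 8.87% had every one below, 17.3% in all.

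**Figure D2:**
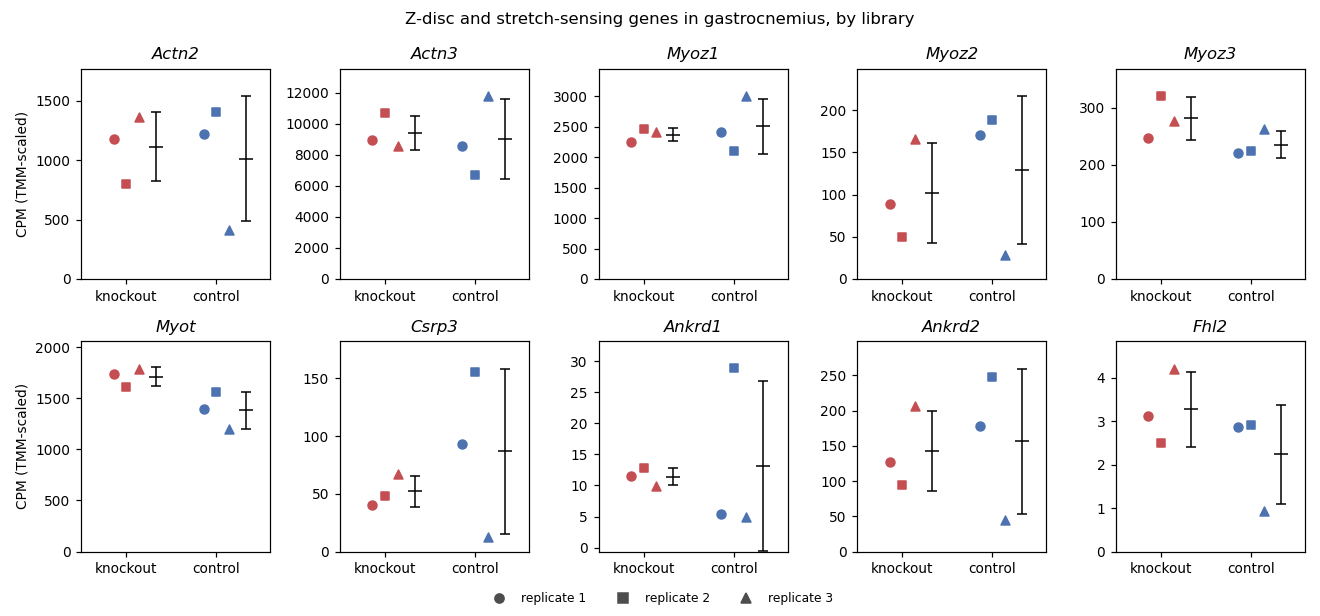
CPM of each member in every library, knockout in red left of control in blue, with marker shapes for replicates 1 to 3 and a horizontal dash with bars for the mean and SD (n = 3 per group). Myot is the panel in which the groups do not overlap, with knockout points from 1608 to 1792 CPM above control points from 1199 to 1561 CPM.

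Myotilin binds alpha-actinin and filamin C and helps to bundle actin at the Z-disc. Myot (Entrez 58916; mm10, chromosome 18, 44334053 to 44355740) stood at 1737, 1608 and 1792 CPM in knockouts 1 to 3 and at 1392, 1561 and 1199 CPM in controls 1 to 3. The lowest knockout lay just above the highest control. Its means were 1712 ± 94.6 CPM in knockout and 1384 ± 181 CPM in control muscle, a log2 fold change of 0.31 (SE 0.12, 95% interval 0.034 to 0.58, edgeR adjusted p = 0.390; 0.0324 before adjustment). Myot was higher in 3 of 3 knockout libraries than in any control library and did not pass the correction over all genes. The log2 fold change stayed between 0.21 and 0.39 with any single library left out, and the adjusted p did not go below 0.309. The unadjusted edgeR p rose to 0.084 without knockout 1, 0.089 without knockout 3, 0.077 without control 1 and 0.062 without control 3. It was 0.041 without knockout 2 and 0.012 without control 2.

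The alpha-actinins are a fast and a general pair: Actn3 is made in fast glycolytic fibres and Actn2 in all fibre types. Actn3 (Entrez 11474; chromosome 19, 4861216 to 4877909) stood at 8978, 10662 and 8585 CPM in knockouts 1 to 3 and at 8532, 6671 and 11784 CPM in controls 1 to 3. Both the lowest and the highest value were controls. Its log2 fold change was 0.065 (SE 0.21, 95% interval -0.43 to 0.56, edgeR adjusted p = 0.932). Without control 3 it was 0.31 (SE 0.15, edgeR adjusted p = 0.515), and without control 2 it was -0.12 (adjusted p = 0.826). Actn2 (Entrez 11472; chromosome 13, 12269426 to 12340732) measured 1176, 796 and 1367 CPM in knockouts 1 to 3 and 1219, 1409 and 416 CPM in controls 1 to 3. Control 3 was far below the rest, and knockout 2 was the next lowest. Its log2 fold change was 0.13 (SE 0.42, interval -0.84 to 1.11, adjusted p = 0.929), and without control 3 it was -0.24 (adjusted p = 0.710).

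Within a library, the ratio of the pair needs no scaling between libraries. Actn2 counts were 13.1%, 7.47% and 15.9% of Actn3 counts in knockouts 1 to 3 and 14.3%, 21.1% and 3.53% in controls 1 to 3. The control ratios bracketed all those of the knockouts, and the log2 ratio differed by 0.18 (knockout minus control; two-sided exact permutation p = 0.9, where 0.1 is the smallest that 3 against 3 libraries allow). Without control 3 the difference was -0.58, and the ratio was lower in each of the 3 knockouts than in either remaining control except that knockout 3 exceeded control 1.

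The 3 myozenins differed in how even they were across libraries, Myoz2 being the uneven one. Myoz1 (Entrez 59011; chromosome 14, 20649102 to 20656540), the abundant fast form, stood at 2251, 2460.1 and 2411.5 CPM in knockouts 1 to 3 and at 2409, 2112 and 3008 CPM in controls 1 to 3. It was the steadiest member among the knockouts, with a coefficient of variation of 4.61%. Its log2 fold change was -0.080 (SE 0.14, 95% interval -0.41 to 0.25, edgeR adjusted p = 0.864), and without control 3 it was 0.071. Myoz3 (Entrez 170947; chromosome 18, 60573717 to 60591716), the other fast form, measured 246, 320.3 and 277 CPM in knockouts 1 to 3 and 219.9, 223 and 263 CPM in controls 1 to 3. Knockouts 2 and 3 were above every control, while knockout 1 was below control 3. The means were 281 ± 37.3 CPM in knockout and 235 ± 23.8 CPM in control muscle (log2 fold change 0.26, SE 0.12, interval -0.030 to 0.54, adjusted p = 0.473). Myoz3 kept a positive log2 fold change with any single library left out, between 0.15 and 0.34.

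Myoz2 (Entrez 59006; chromosome 3, 123006206 to 123035003), the slow and cardiac form, stood at 89.3, 50.2 and 166 CPM in knockouts 1 to 3 and at 171, 188 and 28.3 CPM in controls 1 to 3. Controls 1 and 2 were the highest libraries and control 3 the lowest, 6.65-fold below the highest. Its log2 fold change was -0.34 (SE 0.68, 95% interval -1.92 to 1.24, edgeR adjusted p = 0.883), and without control 3 it was -0.82 (SE 0.44, adjusted p = 0.541). Myoz2 counts were 3.97%, 2.04% and 6.90% of Myoz1 counts in knockouts and 7.08%, 8.93% and 0.943% in controls. The log2 ratio differed by -0.031 (two-sided exact permutation p = 0.9), with the control ratios again on both sides of the knockouts'. Without control 3 this difference was -1.06, with each of the 3 knockouts below both remaining controls (two-sided exact permutation p = 0.2).

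Csrp3 is a small LIM domain protein of slow and cardiac muscle that also binds alpha-actinin and telethonin. Csrp3 (Entrez 13009; chromosome 7, 48830398 to 48848051), whose upstream bases are shown above, had the largest spread of the members over libraries. It measured 40.6, 48.4 and 67.3 CPM in knockouts 1 to 3 and 92.8, 155 and 12.5 CPM in controls 1 to 3. All 3 knockouts lay below controls 1 and 2 and above control 3, and the highest library was 12.4-fold the lowest. The means were 52.1 ± 13.7 CPM in knockout and 86.9 ± 71.6 CPM in control muscle, a log2 fold change of -0.74 (SE 0.72, 95% interval -2.41 to 0.94, edgeR adjusted p = 0.725). Without control 3 it was -1.25 (SE 0.27, adjusted p = 0.295), and without control 2 it was -0.020 (adjusted p = 0.993). The size of the difference therefore rested on which control was used, and its sign stayed negative in each of these fits.

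Fhl2 is a LIM-only cofactor best known in heart, where it binds titin. Fhl2 (Entrez 14200; chromosome 1, 43123071 to 43198343) was scarce, with 126 to 231 counts in knockout and 61 to 189 counts in control libraries. It measured 3.11, 2.5 and 4.22 CPM in knockouts 1 to 3 and 2.87, 2.92 and 0.923 CPM in controls 1 to 3. Control 3 was lowest, and knockout 2 lay below controls 1 and 2. Its log2 fold change was 0.55 (SE 0.43, 95% interval -0.44 to 1.55, edgeR adjusted p = 0.656), and it was 0.18 without control 3.

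Ankrd1 and Ankrd2 are muscle ankyrin repeat proteins that bind the spring region of titin, and Ankrd1 is a textbook target of the TEAD cofactors YAP and TAZ. Ankrd2 (Entrez 56642; chromosome 19, 42035917 to 42045111) measured 127, 94.4 and 206 CPM in knockouts 1 to 3 and 178, 247 and 44.8 CPM in controls 1 to 3. Control 3 was again lowest and control 2 highest. Its log2 fold change was -0.14 (SE 0.56, 95% interval -1.44 to 1.17, edgeR adjusted p = 0.945), and it was -0.58 without control 3 (adjusted p = 0.552). Ankrd1 (Entrez 107765; chromosome 19, 36111965 to 36119844) stood at 11.5, 12.8 and 9.98 CPM in knockouts 1 to 3 and at 5.48, 28.9 and 4.93 CPM in controls 1 to 3. The knockouts were close together, with a coefficient of variation of 12.4%, and lay below control 2 and above controls 1 and 3. The 3 controls together had a coefficient of variation of 104%, with controls 1 and 3 close to each other and control 2 far above them. The log2 fold change was -0.20 (SE 0.64, interval -1.69 to 1.28, adjusted p = 0.929). Without control 3 it was -0.60 (SE 0.59, adjusted p = 0.728). Without control 2 it turned to 1.12 (SE 0.15, adjusted p = 0.178), with each of the 3 knockouts above both remaining controls. Ankrd1 counts were 9.02%, 13.6% and 4.85% of Ankrd2 counts in knockouts 1 to 3 and 3.07%, 11.7% and 11.0% in controls 1 to 3. That log2 ratio differed by 0.19 (two-sided exact permutation p = 0.8), and by 0.49 without control 3 (exact permutation p = 0.6). Over the 3 ratios tested, each p adjusted to 0.9.

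**Figure D3:**
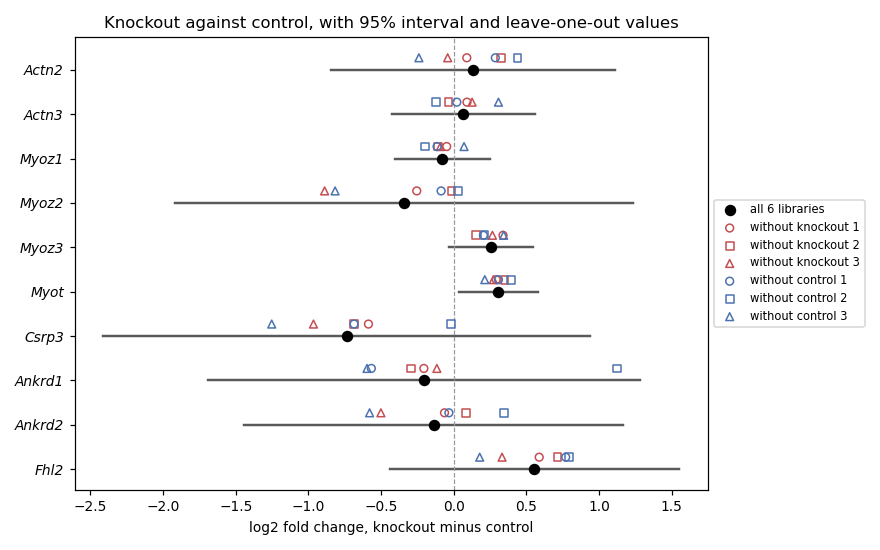
Log2 fold change of each member, knockout minus control, with all 6 libraries (black point, line for the 95% interval) and with 1 library left out (open symbols, red where a knockout and blue where a control was left out). Myot, Myoz3 and Fhl2 keep a positive value and Csrp3 a negative one in these fits, while the other 6 members change sign.

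The members differed widely in how much they varied between libraries. The median coefficient of variation over the 6 libraries was 37.5% for the members, against 13.7% over all tested genes and 12.7% over the 26 other Z-disc genes listed. It was 52.8% for the slow fibre genes, 31.3% for the macrophage and leukocyte markers and 26.1% for the fibroblast and tendon markers, so a high value was not particular to the members. Without control 3 it was 20.6% for the members, 28.9% for the slow fibre genes and 12.5% for all tested genes. Csrp3 (71.8%), Ankrd1 (71.3%), Myoz2 (59.3%), Ankrd2 (50.0%), Fhl2 (38.8%) and Actn2 (36.1%) were the uneven members, and 2.08% of tested genes had a larger value than Csrp3. Myoz1 (12.5%), Myot (14.3%), Myoz3 (14.6%) and Actn3 (19.5%) were the even ones, and 54.1% of tested genes had a larger value than Myoz1. Control 3 was the lowest library for 7 of the 10 members, as it was for 10 of 10 slow fibre genes and 7 of 10 fibroblast and tendon markers, against 21.7% of all tested genes, and control 2 the highest for 5, against 16.3%. Control 3 was the highest library for the abundant fast-type members Actn3 and Myoz1. Myoz3, the other fast form, was lowest in control 1 and highest in knockout 2.

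**Figure D4:**
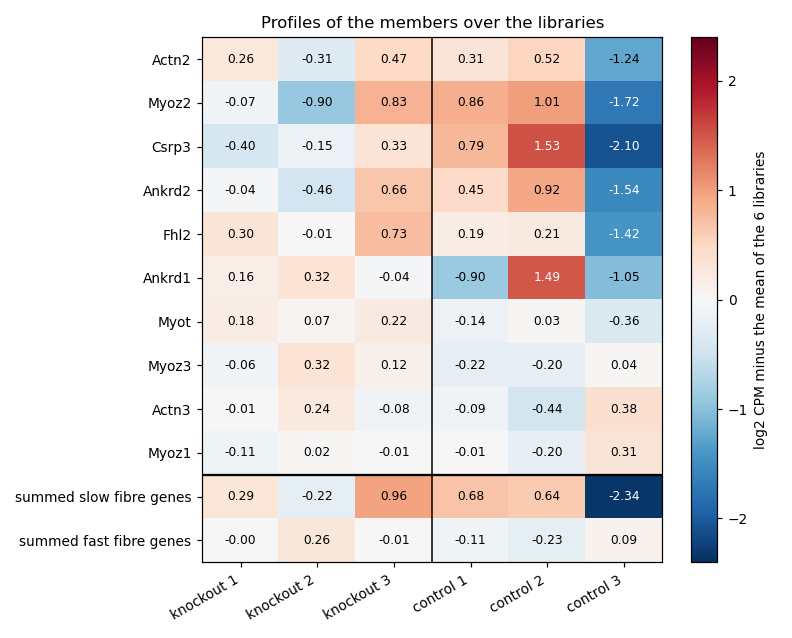
Log2 CPM of each member minus its mean over the 6 libraries, with knockouts 1 to 3 left of controls 1 to 3, and, under the line, the same for the summed slow and fast fibre genes. Control 3 is the darkest blue column for Csrp3 (-2.10), Myoz2 (-1.72), Ankrd2 (-1.54), Fhl2 (-1.42) and Actn2 (-1.24), and Ankrd1 peaks in control 2 (1.49).

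The genes with profiles most similar to the members' were looked for among all well-measured genes. Likeness was taken as the root mean square difference of centred log2 CPM over the 6 libraries, among 7729 other genes with a mean of at least 10 CPM. Myoz2 was most like Myl3, a slow myosin light chain (0.22 log2 units), and Prune2 (0.26). Ankrd2 was most like Mb, myoglobin (0.14), and Myh2, the myosin heavy chain of fast oxidative fibres (0.16). Fhl2 was most like Tpm3, the slow tropomyosin (0.14), and Vgll2, a TEAD cofactor of muscle (0.18), and Actn2 was most like Lpl, lipoprotein lipase (0.098), and Vgll2 (0.13). Csrp3 had looser neighbours, Myom3, an M-band protein (0.31), and Hspb7, a small heat shock protein (0.40). Ankrd1 was most like Tnfrsf12a, the receptor of the cytokine TWEAK (0.38), and Enah, an actin regulator (0.42). Actn3 was nearest to Sort1 (0.032) and Slc37a4 (0.046), Myoz1 to Tprkb (0.027) and Phkg1 (0.033), Myoz3 to Tmod1 (0.051) and Tmtc1 (0.052), and Myot to Naca (0.043) and Rapgef2 (0.053). These distances were computed with control 3, the low slow-fibre library, included, and flat genes lie close to one another by this measure.

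Among the members themselves, Actn3 and Myoz1 were the closest pair (0.15 log2 units) and Actn3 and Csrp3 the farthest apart (1.37). Actn2 and Fhl2 differed by 0.22, Actn2 and Ankrd2 by 0.26 and Myoz2 and Ankrd2 by 0.27.

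Because slow fibre genes differed so much between libraries, members were also set against those genes within each library, a comparison chosen after the values were seen. Myoz2 counts were 8.03%, 6.41% and 9.37% of the summed slow fibre counts in knockouts 1 to 3 and 11.7%, 13.3% and 15.8% in controls 1 to 3. The groups did not overlap, and the log2 ratio differed by -0.78 (two-sided exact permutation p = 0.1, the smallest possible; adjusted p = 0.3 over 9 such ratios). Csrp3 counts were 3.65%, 6.18% and 3.79% of that sum in knockouts and 6.35%, 10.9% and 6.96% in controls (log2 difference -0.83, exact permutation p = 0.1, adjusted 0.3). Here knockout 2 lay just under control 1. Ankrd2 counts were 11.4%, 12.1% and 11.6% of the sum in knockouts and 12.2%, 17.4% and 24.9% in controls (-0.58, exact permutation p = 0.1, adjusted 0.3). Actn2 (-0.40), Ankrd1 (-0.38) and Fhl2 (0.011) overlapped between the groups on this scale. The share of all tested genes that do not overlap on this scale was not counted, so whether such a separation is unusual is not known. With ratios of FPKM in place of counts, Myoz2 differed by -0.67 (exact permutation p = 0.1), while Csrp3 (-0.73, p = 0.2) and Ankrd2 (-0.47, p = 0.3) overlapped between the groups. Without control 3 the count differences were -0.67 for Myoz2, -0.92 for Csrp3 and -0.32 for Ankrd2, with the highest knockout just below control 1 in Csrp3 and Ankrd2.

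The outcome depended on the gene used as the scale. The slow fibre genes in the sum did not move alike, with 6 positive and 4 negative log2 fold changes. Myl2 and Myl3, the latter the gene most like Myoz2, were at -0.22 and -0.21, and Tnnc1 and Tnnt1 at 0.70 and 0.66. Ratios to single slow fibre genes were not tested. Against Myh2, the 3 members Myoz2, Csrp3 and Ankrd2 all overlapped between the groups. Myh2 was itself 1 of the 2 genes most like Ankrd2 over these same libraries (0.16 log2 units). A flat ratio of Ankrd2 to Myh2 therefore follows from that likeness and is no separate result. Myoz2 counts were 2.75%, 2.3% and 3.54% of Myh2 counts in knockouts 1 to 3 and 3.82%, 4.0% and 2.38% in controls 1 to 3 (log2 difference -0.23, exact permutation p = 0.5). That difference was -0.47 without control 3 and between -0.085 and -0.40 without any other 1 library. Csrp3 differed by -0.29 (exact permutation p = 0.7; -0.72 without control 3) and Ankrd2 by -0.028 (p = 0.9; -0.12 without control 3) on that scale. The myosin heavy chain genes are near-identical in long stretches, so the Myh2 count is uncertain by the reads it shares with Myh1 and Myh4.

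**Figure D5:**
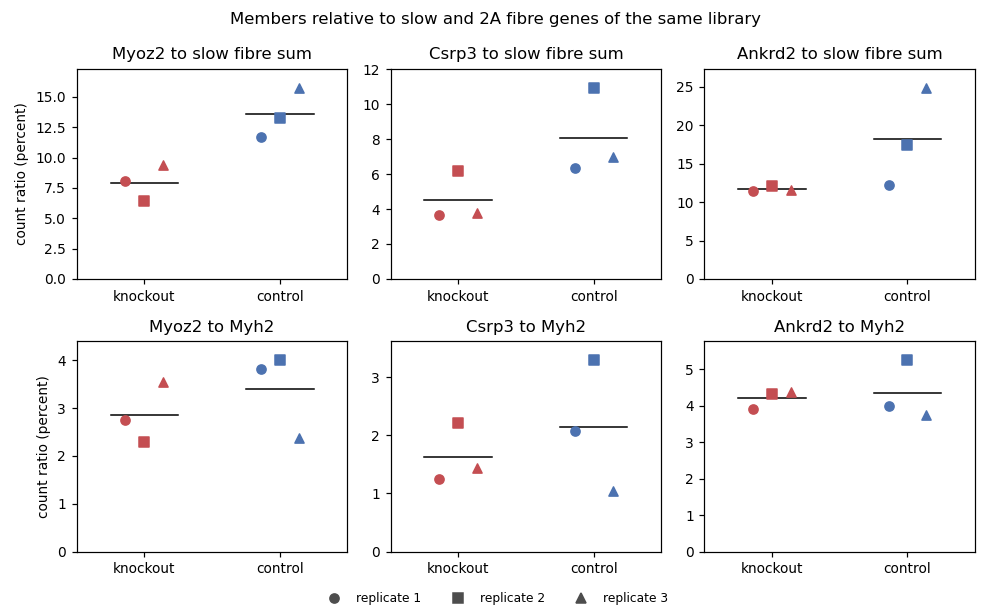
Counts of Myoz2, Csrp3 and Ankrd2 as a percentage of the summed slow fibre counts (top row) or of Myh2 counts (bottom row) of the same library, knockout in red left of control in blue, with marker shapes for replicates 1 to 3 and a line at each group's mean. Against the slow fibre sum every knockout point lies below every control point, and against Myh2 the groups overlap. Actn2, Ankrd1 and Fhl2, which overlapped between the groups against the slow fibre sum, are not drawn. With ratios of FPKM, Csrp3 and Ankrd2 overlapped against that sum too.

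The other genes of the Z-disc and of the pathways around it gave no call in edgeR either, and a few in DESeq2. Of 26 other Z-disc genes, 18 lay above 0 in log2 fold change and 8 below it, their median was 0.096, and edgeR called 0 of them after adjustment (2 before it, at p under 0.05). Neb, which encodes nebulin, the ruler of the thin filament, stood at 5699, 6280 and 6250.3 CPM in knockouts and 4813, 4841 and 4915 CPM in controls (0.32, edgeR adjusted p = 0.343). Ldb3, the PDZ-LIM protein that ties alpha-actinin to titin, stood at 2763, 2973 and 2547 CPM in knockouts and 2281, 2318 and 2243 CPM in controls (0.28, adjusted p = 0.367). In both genes every knockout library was above every control library, as in 3 of the 26, beside the 8.38% of all tested genes. A list of 8 genes joined paralogs of the members (Actn1, Actn4, Csrp1, Csrp2, Fhl1 and Fhl3) with the PDZ-LIM genes Pdlim1 and Pdlim4. Of the 8, 6 were positive, with a median of 0.26. Pdlim1 (0.30) and Pdlim4 (0.24), which are not paralogs of a member, were among the positive ones. The non-muscle alpha-actinins Actn4 (0.28, adjusted p = 0.347) and Actn1 (0.52, adjusted p = 0.368) had the smallest p.

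A further list joined M-band genes, the ubiquitin ligases that bind titin there, and the myosin-binding protein genes Mybpc1, Mybpc2 and Mybph. It had 7 of 10 positive and a median of 0.19. Trim63 was at 1.13 (edgeR adjusted p = 0.204) and Myom2, a myomesin, at 0.43 (adjusted p = 0.312). Genes of calcineurin, its regulators and its NFAT and MEF2 effectors had 7 of 16 positive and a median of -0.0077. Rcan1, a feedback inhibitor of calcineurin, stood at 199, 195 and 139 CPM in knockouts and at 79.4, 151 and 76.5 CPM in controls (0.80, adjusted p = 0.367), with knockout 3 below control 2, and Nfatc3 was at -0.18 (adjusted p = 0.384). Genes of the Hippo pathway and serum response factor had 7 of 16 positive and a median of -0.014. Abra, a striated muscle activator of serum response factor signalling, stood at 319.7, 311 and 248 CPM in knockouts and at 180.3, 247 and 179 CPM in controls (0.54, adjusted p = 0.342). Mkl2, a cofactor of serum response factor, was at 0.29 (adjusted p = 0.364). No gene of these lists passed after adjustment in edgeR or in limma-voom, where edgeR called 5 genes higher and 3 lower of all 14109. DESeq2's Wald test called 210 higher and 80 lower, among them Neb (adjusted p = 0.00479), Trim63 (1.48e-05), Myom2 (0.0203) and Abra (0.0489), all higher, and 0 members. In edgeR without knockout 3, Trim63 passed as well (adjusted p = 0.0339).

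Fibre genes and markers of other cells varied beside the members. Slow fibre genes had a median log2 fold change of 0.45, with Tpm3 at 0.52 (edgeR adjusted p = 0.694) and Tnnc1 at 0.70 (0.793), both lowest in control 3. Without control 3 the slow fibre median was -0.043, Tpm3 was at 0.11 and Tnnc1 at 0.14. On leaving out that library the medians of the fast fibre genes and of the fibroblast and tendon markers were 0.17 and 0.20, and those of the calcineurin and the Hippo lists -0.079 and -0.091. Fast fibre genes had a median of 0.11, with Myh4 at 0.37 (0.516) and Casq1 at 0.26 (0.580), and summed to 166379 to 201682 CPM in knockout and 143073 to 179018 CPM in control libraries. Fibroblast and tendon markers were positive in 9 of 10, with a median of 0.38, with Col3a1 at 0.62 (0.295; DESeq2 0.00974, higher) and Col1a2 at 0.66 (0.384), and summed to 3047 to 3491 CPM in knockout and 1905 to 3236 CPM in control libraries. Macrophage and leukocyte markers were positive in 7 of 8, with Itgam at 0.95 (0.363) and Fcer1g at 0.58 (0.457), and summed to 81.0 to 130.1 CPM in knockout and 78.4 to 138 CPM in control libraries. Endothelial and smooth muscle markers summed to 642 to 727 CPM in knockout and 602 to 763 CPM in control libraries, with Kdr at -0.65 (0.438) and Acta2 at 0.27 (0.451). Of the muscle markers, Ttn was at 0.40 (0.466) and Des at -0.19 (0.473). No defining marker of these lists was at 0 in any library, and their part in the members' values was not tested.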

How the data were processed

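RNA-seq of gastrocnemius was analysed in 3 knockout and 3 control libraries, grouped by the genotype labels. The authors deposited a raw read count, an FPKM and a TPM value per gene and library, per the file headers; TPM was not used. The submitters' processing notes name StringTie 1.3.4d, Bowtie2 2.3.4.1, FastQC 0.11.7 and bcl2fastq 2.20.0, with mm10. How reads were counted, whether by strand, and how reads fitting several genes were treated is not given in the sources used here. The labels do not say which mice were littermates, and p-values cover only variation among these 6 libraries, part of which may be technical.

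Libraries held 48658436 to 67332846 counts, and 3 counts corresponded to 0.0446 to 0.0617 CPM. This floor covers counting error only. No 2 libraries agreed within sampling noise. edgeR 4.0.16 (R 4.3.3) was run on the counts: filterByExpr with a minimum count of 10 kept 14109 of 24532 genes, followed by TMM scaling, the quasi-likelihood test and Benjamini-Hochberg adjustment over all tested genes, with a threshold of 0.05. CPM are counts divided by the TMM-scaled library size in units of 1e6 counts. The edgeR SE was derived from the log2 fold change and its quasi-likelihood F statistic, and the 95% intervals were built from that SE. Ratios within a library were tested by exact permutation over libraries. Alternatives used DESeq2 1.42.0, limma 3.58.1, log2(FPKM + 1) and log2(FPKM + 0.1), other scalings and filters, the replicate number as a block, and each library left out in turn. The edgeR script was tested on simulated data. Upstream bases came from the RefSeq table (GRCm38.p6), in which 6 members had an entry that was used. Entries on chromosome 18, where Myot and Myoz3 lie, were left out. Gene positions are those of RefSeq, and overlaps between genes were looked for in GENCODE vM21 on mm10. Myoz2 and Fhl2 overlap annotated genes that are not rows of the count table.

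Members, gene lists and tests were chosen with earlier results of these data known, and the ratios to slow fibre genes and Myh2 and the list values without control 3 after seeing the data. Named genes were all members, the 2 genes of smallest p in each list, and the 2 genes with the most similar profile for each member.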

Additional observations from a re-analysis of the deposited data

How the results depend on the processing

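No member passed the adjusted threshold under any alternative run. Over all genes, the main counts of 5 higher and 3 lower became 210 and 80 with DESeq2's Wald test, 4 and 1 with limma-voom, and 1 and 0 with either FPKM fit. They ranged from 1 to 120 higher and 0 to 21 lower with 1 library left out, the largest counts being those without knockout 3; the cause was not tested. Same-numbered libraries did not deviate together (r = -0.0082, -0.19 and -0.098), so the numbers were not taken as pairs; the replicate block gave 0 higher and 0 lower genes, and ratio differences of 0.18 (exact permutation p = 1), -0.031 (p = 1) and 0.19 (p = 0.75). Ankrd1 turned positive with limma-voom (0.26), FPKM + 1 (0.14), FPKM + 0.1 (0.22) and the replicate block (0.31), and Ankrd2 likewise (0.10, 0.033, 0.036 and 0.033). With 1 library left out, log2 fold changes ranged from -0.24 to 0.44 for Actn2, -0.12 to 0.31 for Actn3, -0.20 to 0.071 for Myoz1, -0.89 to 0.031 for Myoz2, -0.60 to 1.12 for Ankrd1 and -0.58 to 0.35 for Ankrd2. The log2 ratio ranged from -0.58 to 0.71 for Actn2 to Actn3, -1.06 to 0.57 for Myoz2 to Myoz1 and -0.43 to 0.59 for Ankrd1 to Ankrd2. Against the slow fibre sum it ranged from -0.69 to 0.045 for Actn2, -1.27 to 0.17 for Ankrd1 and -0.23 to 0.46 for Fhl2, and against Myh2 from -0.47 to -0.085 for Myoz2, -0.72 to 0.10 for Csrp3 and -0.12 to 0.12 for Ankrd2. The count of members at an unadjusted p under 0.05 was 0 to 2. Usp21 was lower in all fits and its adjusted p was 0.066 and 0.055 in the FPKM fits and 0.20 with the block, and 0.15 without knockout 2, 0.19 without control 1, 0.13 without control 2 and 0.094 without control 3. With 3 libraries a group, Fhl2, with 61 counts in its lowest library, is the member measured least precisely by depth.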
